A study of Mus musculus with 40 samples.

Results

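The esophagus of mouse embryos was compared between E18.5, the last days before birth, and E13.5, soon after its separation from the trachea is complete, by bulk RNA-seq, in which the transcripts of all cells of a tissue piece are read as one sum. The 4 libraries were picked out by their labels from the 40 of the series, as the 2 of the E18.5 esophagus and the 2 of the E13.5 esophagus. The comparison and the gene lists were chosen with earlier results of these data known. All embryos were untreated wild-type FVB/N mice. According to the methods, the pieces were short segments of the upper esophagus taken just below the larynx, and the tissue of 10 embryos was pooled, so that a library holds no value for a single animal. The labels call the 2 libraries of an age replicates, and p-values here measure the spread between such pooled libraries. The 4 belong to a set of 30 libraries of the larynx, trachea and esophagus at 5 ages whose names end in a short code, and this whole set was used to estimate that spread.

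In these 5 days the esophagus matures towards an organ that can swallow. Its lining, at first a simple columnar epithelium of foregut endoderm, becomes a stratified squamous one in which basal cells, marked by p63 and keratins 5 and 14, give rise to suprabasal cells with keratins 4 and 13, and in the embryo ciliated cells appear at its surface for a time. Its wall first holds smooth muscle, and in mice skeletal muscle then takes the place of most of it, from the throat downwards. The paper describes the wall as already a smooth muscle tube when this change begins, with most striated fibres formed after birth. Nerve cells of the wall come from migrating neural crest cells. The comparison asks which genes of these lineages differ between the 2 ages.

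The E18.5 libraries held 18301141 and 15758853 expected counts and the E13.5 libraries 19482491 and 19171531. Replicates correlated with r = 0.967 at E18.5 and r = 0.947 at E13.5, across genes, which are not independent, and on the log2 scale. Mitochondrial ribosomal RNA took 27.8% of the counts in both E18.5 libraries, against 12.3 and 16.3% at E13.5, and leaving its 2 genes out before normalization gave 5113 genes past the threshold, against 5115 with them. Genes of other organs set libraries of the same age apart. Of the E13.5 libraries, replicate 1 held 11870 normalized counts of the liver gene Alb and replicate 2 held 1168, whereas the heart gene Myh6 had 3392 in replicate 1 and 38510 in replicate 2. At E18.5, thyroglobulin (Tg) had 92820 and 45080 and the cartilage collagen Col2a1 67230 and 27950. These genes are given in full further on, and gene groups whose count of calls rests on one library are given with and without it. The esophageal markers Trp63, Sox2, Krt5, Krt14, Krt8, Krt18, Epcam, Cdh1, Pax9 and Pitx1 were present in all 4 libraries, the lowest value being the 55.7 normalized counts of Sox2 in an E13.5 library.

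A gene was called different where the adjusted p of edgeR's quasi-likelihood test was under 0.05. Levels are normalized counts, that is expected counts divided by the depth of each library times its median-ratio factor. Summed over all genes tested, these levels were 27306198 and 23812980 at E18.5, against 14860047 and 15138294 at E13.5. A fold between ages is therefore not a fold in the share of a library's total. Of 35650 genes tested, 5115 (14.3%) passed, 3107 (8.72%) higher and 2008 (5.63%) lower at E18.5. The calls fell to 3071 without replicate 2 of E18.5 and to 3067 without replicate 1 of E13.5. In 4704 of the 5115 genes the mean of the higher group was at least 50 normalized counts, and 214 of the higher genes had no count at E13.5 while 69 of the lower genes had none at E18.5. Against a group without a count, a fold is given here as a lower bound, set by 3 counts over the 2 libraries of that group. Bulk RNA cannot tell a change in the number of cells of a type from a change of RNA per cell, and this holds for every result that follows. The shares of 8.72 and 5.63% are over all genes tested, of which 17099 had a mean of at least 10 over the 4 libraries. With filterByExpr, a stricter filter of edgeR, 3425 of 22805 genes were higher and 2425 lower. A count of calls in a gene list is to be read beside both.

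Among the 15 largest fitted rises with a mean of at least 50 normalized counts, a rank in which genes without a count at E13.5 have no measured fold, were the following. Clca3b, a secreted protein of the calcium-activated chloride channel regulator family, had 1200 and 4551 normalized counts at E18.5 and none in either E13.5 library, a rise of at least 2470-fold. Sec14l3, a lipid transfer protein of ciliated airway cells, was also without a count at E13.5 and had 2232 and 2425 at E18.5. Psca, a surface antigen of squamous and glandular epithelia, reached 3987 and 13370, against 0.763 and 0, and Dmbt1, a mucosal defence glycoprotein, had 2111 and 663 at E18.5 and no count at E13.5. The cytochrome P450 gene Cyp2a5 had 724 and 1212, and Fam240b 436 and 473, again against no count. The 15 largest fitted falls included genes of liver, heart and embryonic blood, which are described with the neighbouring organs below, together with Lin28b and Hoxa7.

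**Figure D1:**
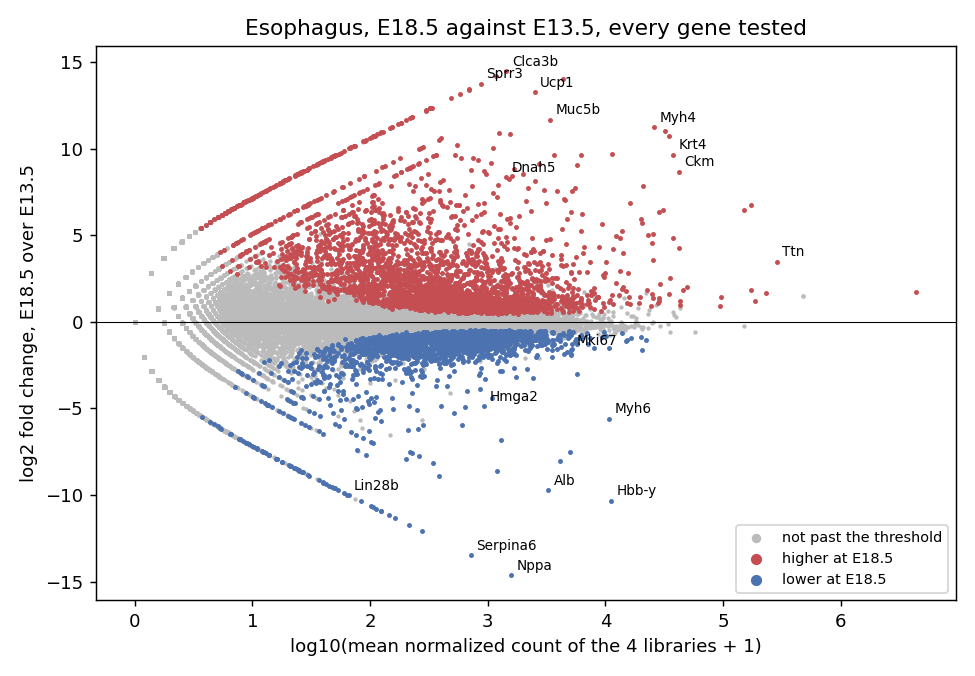
Log2 fold change of E18.5 over E13.5 in the esophagus (vertical axis) against the log10 of the mean normalized count of the 4 libraries plus 1 (horizontal axis), 1 point per gene tested. The 3107 red points are higher at E18.5, the 2008 blue points lower and grey points did not pass; the straight outer edges are genes without a count at 1 of the ages, whose fitted fold is not a measured size.

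Genes of squamous differentiation rose. Of 53 tested genes for the suprabasal keratins, small proline-rich proteins and other parts of the cornified envelope, the protein shell under the membrane of a mature squamous cell, 36 rose and none fell, and the median change was 5.32 on the log2 scale, or 4.53 with genes without a count at E13.5 set to their bound, against 0.00 for all genes tested. Leaving out any single library left 30 to 34 rises. Krt13, the acidic keratin of suprabasal esophageal cells (chromosome 11, 100008153 to 100012392, GRCm39), had 46110 and 81030 normalized counts at E18.5, against 21.4 and 38.7 at E13.5, which is a 2110-fold rise (log2 11.04, SE 1.63, adjusted p = 5.59e-05). Its partner Krt4 (chromosome 15, 101826970 to 101833170) had 50710 and 98510, against 70.2 and 114 (807-fold, adjusted p = 5.84e-05). For both keratins the lower E18.5 library lay far above the higher E13.5 library. RSEM divides reads among similar keratins, so that the smaller values of this family are estimates.

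Sprr3, a cross-linked envelope protein of the esophagus, had 1435 and 2029 normalized counts at E18.5 and none at E13.5 (at least 1490-fold higher, adjusted p = 8.44e-05). The stress-inducible keratin Krt6b had 819 and 1498, against no count (at least 995-fold higher). Repetin (Rptn), an S100-type envelope protein, also had no count at E13.5, and its E18.5 libraries stood far apart at 1104 and 189. Among the members that did not pass was Ivl (involucrin), which had 8.95 and 31.7, against 2.29 and 0 (adjusted p = 0.0846), and Loricrin had 25.4 and 16.6, against 1.53 and 1.58 (adjusted p = 0.154). Keratins of the skin overlapped between ages, Krt1 with 194 and 66.5, against 11.4 and 126, and Krt10 with 130 and 55.9, against 37.4 and 218. These 4 genes were chosen after their values were seen.

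Promoters of the list are shown because its members rose together. In the RefSeq promoter table (GRCm38.p6, 300 bases around each start site, 32851 promoters), 43 of 55 listed genes matched, with 51 promoters. The letters TGANTCA, bound by AP-1 factors, stood in 25 of these 51 (49.0%) and in 7.81% of all promoters. Both promoters printed belong to the genes with the largest rise among those that hold it, and capitals mark its matches on either strand.
Rptn (chr3:93393449-93393748, plus strand): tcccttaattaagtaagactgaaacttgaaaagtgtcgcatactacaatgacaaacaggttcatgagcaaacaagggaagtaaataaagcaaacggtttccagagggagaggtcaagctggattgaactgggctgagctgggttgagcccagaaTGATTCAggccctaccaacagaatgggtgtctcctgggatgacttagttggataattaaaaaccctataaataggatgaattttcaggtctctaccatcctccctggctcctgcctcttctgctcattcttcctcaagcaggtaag
Krt13 (chr11:100120528-100120827, minus strand): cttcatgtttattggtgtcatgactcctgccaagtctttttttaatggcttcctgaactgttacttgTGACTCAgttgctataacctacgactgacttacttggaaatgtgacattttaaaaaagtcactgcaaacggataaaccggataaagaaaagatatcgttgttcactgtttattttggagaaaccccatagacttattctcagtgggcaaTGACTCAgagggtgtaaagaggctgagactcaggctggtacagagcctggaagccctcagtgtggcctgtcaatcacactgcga
A match is a description of the letters, and no binding was measured. In all, 8 motifs were searched on both strands, with letters chosen after earlier shares had been looked at, and matches of different motifs may overlap.

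Of 18 basal-layer genes, 8 rose and 1 fell (median log2 change 1.96), with 4 and 5 rises left without replicate 1 of E13.5 and without replicate 2 of E18.5. Krt15, a keratin of esophageal basal cells, had 15910 and 35480 normalized counts at E18.5, against 637 and 1169 at E13.5 (28.4-fold, adjusted p = 0.00519), and it did not pass without replicate 1 of E13.5 (adjusted p = 0.0873). Lamb3, a laminin chain of the epithelial basement membrane, rose 11.2-fold with 998 and 1668, against 101.4 and 135.8. Col17a1, the hemidesmosomal collagen, rose 8.81-fold. The defining basal markers did not pass. Krt5 had 4115 and 6388, against 1405 and 1025 (adjusted p = 0.137), Krt14 2150 and 6191, against 500 and 1423 (adjusted p = 0.131), and Trp63 1070 and 1508, against 673 and 670 (adjusted p = 0.415). In Krt5, Krt14 and Trp63 both E18.5 libraries lay above both E13.5 libraries, as in 23.5% of all genes tested.

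Of 15 genes of simple epithelia, 8 rose (median 1.89). Krt19 had 4692 and 10890, against 638 and 447 (14.4-fold, adjusted p = 0.000368), Krt23 436 and 831, against 0.763 and 7.90, and Cldn3, a tight junction claudin, 706 and 1301, against 98.4 and 23.7. Krt8 and Krt18, the keratin pair of the early foregut epithelium, differed between the E13.5 libraries by more than between ages. Krt8 had 3776 and 7148 at E18.5, against 2794 and 304 (adjusted p = 0.169), and Krt18 1734 and 2468, against 2114 and 306 (adjusted p = 0.683). Replicate 1 of E13.5, which is high in both, is also the library with the higher Alb. Epcam, the pan-epithelial adhesion protein, had 1801 and 3193, against 985 and 361, and did not pass (adjusted p = 0.11), while E-cadherin (Cdh1) rose 3.98-fold. Whether the share of epithelial cells differed was not tested. Of 21 desmosome and tight junction genes 12 rose (median 2.08), and 7 or 8 did without replicate 2 of E18.5 or without either E13.5 library. Dsg3, the desmoglein of squamous epithelium, had 1844 and 3367, against 76.3 and 170 (21.2-fold), and Tjp3, a tight junction scaffold, 364 and 916, against 62.5 and 26.1. Dsp, the plaque protein of all desmosomes, had 10380 and 12820, against 2760 and 5497 (adjusted p = 0.257).

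Of 30 transcription factors of foregut and squamous epithelium, 16 rose and 1 fell (median 1.98), with 10 rises left without replicate 2 of E18.5. The ETS factors of differentiating epithelium were among the largest. Ehf had 2410 and 3352 normalized counts, against 54.9 and 36.3 (62.9-fold, adjusted p = 0.000113), Elf3 922 and 1674, against 127 and 18.95, and Elf5 151 and 276, against 12.2 and 11.8. Foxq1, a forkhead factor, had 249 and 304, against 2.29 and 17.4. Sox2, which sets esophageal against respiratory fate in the foregut, rose 6.86-fold with 304 and 556, against 55.7 and 69.5. Pax9 (789 and 1026, against 333 and 165, adjusted p = 0.264) and Pitx1 (163 and 503, against 90.0 and 65.5, adjusted p = 0.152) did not pass. Gata6, a GATA factor of early endoderm and foregut mesoderm, was the one member that fell and was chosen after its values were seen. It fell to 67.1 and 37.8 at E18.5, against 696 and 648 at E13.5 (log2 -3.68, SE 0.45, adjusted p = 4.31e-06). The paper places Gata6 among genes of cardiac morphogenesis, and the E13.5 libraries held 3392 and 38510 normalized counts of Myh6. Whether heart tissue took part in this fall was not tested.

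**Figure D2:**
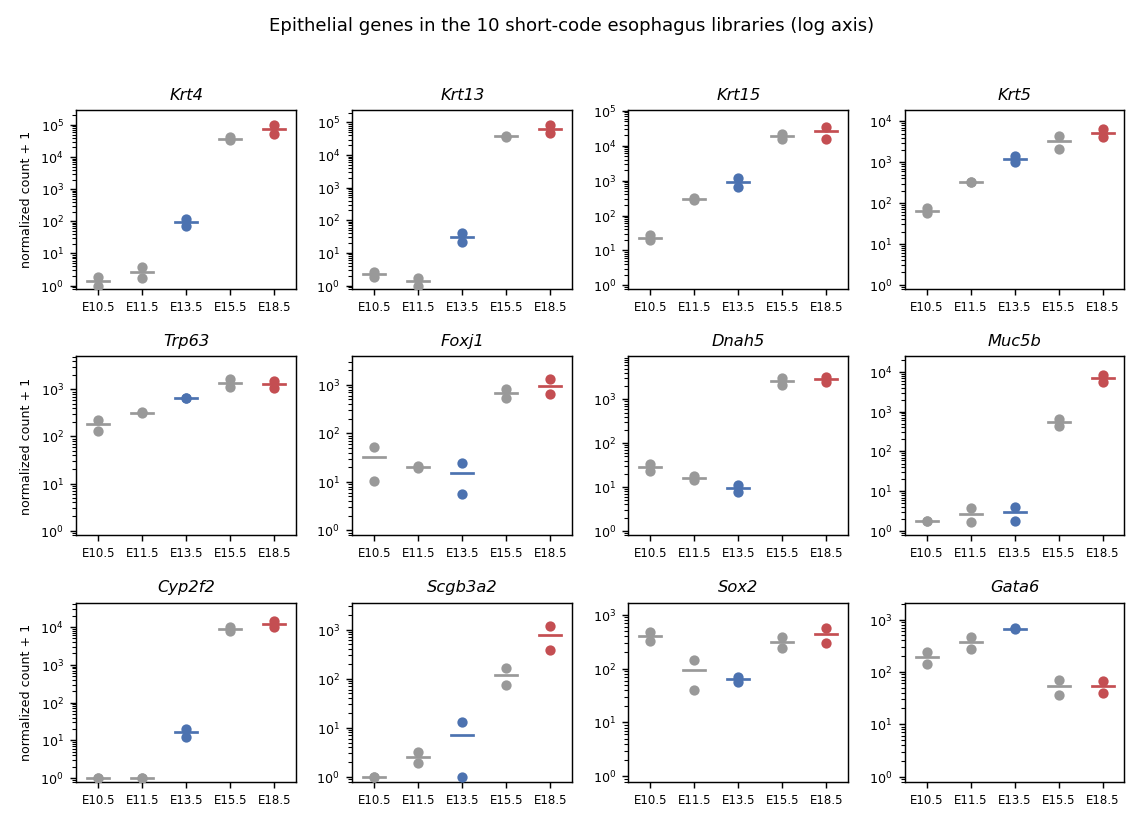
Normalized count plus 1 (log axis) of 12 epithelial genes in the 10 short-code libraries of the esophagus by age, E18.5 in red, E13.5 in blue and other ages in grey; points are libraries and bars their means, 2 libraries per age. Krt4 had 34380 and 41460 and Krt13 35480 and 38860 at E15.5, whereas Muc5b had 664 and 446 at E15.5 and 8105 and 5426 at E18.5.

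At E15.5, an age that entered the test only through the spread, many of these genes already differed from E13.5 in both libraries. In 31 of the 36 squamous genes that rose, both E15.5 libraries lay above both E13.5 libraries, and in all 16 transcription factors that rose they did, against 2919 of the 3107 genes that rose among all tested (93.9%). The genes were picked by their E13.5 values, so these counts are a description. Some still lay far below E18.5, as Krt6b with 162 and 119 at E15.5 and 819 and 1498 at E18.5.

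Genes of multiciliated cells, which carry the motile cilia of the embryonic foregut surface, rose almost without exception. Of 43 tested, 39 rose and none fell (median 6.06, or 5.78 with bounds), and 35 to 38 rose without any single library. Foxj1, the master regulator of motile cilia and chosen after its values were seen, had 631 and 1287 normalized counts at E18.5, against 23.6 and 4.74 at E13.5 (66.7-fold, adjusted p = 7.76e-05). The outer dynein arm heavy chain Dnah5 had 2532 and 3190, against 6.87 and 10.3 (330-fold), and Dnah9, another, 997 and 1649, against 19.1 and 7.90. The ciliary genes Ccdc153 (542 and 753), Tmem212 (313 and 592) and Sntn (209 and 218) had no count at E13.5, so that they were at least 556-fold, 389-fold and 183-fold higher. Dnali1, an inner dynein arm light chain, had 592 and 588, against 0.763 and 0.790. In all 39 genes both E15.5 libraries lay above both E13.5 libraries, against 93.9% of all genes that rose, and Foxj1 had 529 and 803 at E15.5. Those that did not pass were Rfx3 (424 and 514, against 286 and 352, adjusted p = 0.214), Gmnc, Tekt2 and Myb, which were chosen after their values were seen.

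The promoters of this list were examined in the same way, with 37 of 44 genes matched and 46 promoters. One arm of the X-box, the site of RFX factors, stood in 10 of 46 (21.7%), against 6.27% of all promoters. The pair printed holds a match, in capitals, in the genes with the largest rise of those that have one.
Sntn (chr14:13670626-13670925, plus strand): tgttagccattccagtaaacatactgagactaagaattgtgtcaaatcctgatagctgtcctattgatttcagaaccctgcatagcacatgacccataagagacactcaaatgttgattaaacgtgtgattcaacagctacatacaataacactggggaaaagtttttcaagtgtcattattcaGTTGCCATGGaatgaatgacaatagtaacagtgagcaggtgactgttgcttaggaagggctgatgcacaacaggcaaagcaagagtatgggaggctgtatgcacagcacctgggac
Dnali1 (chr4:125065608-125065907, minus strand): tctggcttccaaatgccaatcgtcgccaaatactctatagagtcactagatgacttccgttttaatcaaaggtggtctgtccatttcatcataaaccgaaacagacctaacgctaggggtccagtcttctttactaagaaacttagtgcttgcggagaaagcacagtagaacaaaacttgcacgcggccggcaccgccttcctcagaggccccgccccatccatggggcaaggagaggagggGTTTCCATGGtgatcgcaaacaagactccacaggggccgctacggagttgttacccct
The trachea, whose surface is ciliated throughout life, held these genes at levels of the same order at E18.5. Over the 40 multiciliated genes with a mean of at least 50 in either tissue, the esophageal mean was 80.1 to 186% of the tracheal one (median 139%). For Dnah5 the esophagus had 2532 and 3190, against 2848 and 2690 for the trachea.

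Secretory genes rose as well. Of 30 tested, 24 rose and none fell (median 6.78, or 6.00 with bounds), and 18 to 21 did without any single library. Muc5b, a gel-forming mucin (chromosome 7, 141392807 to 141426821), had 8105 and 5426 normalized counts at E18.5, against 0.763 and 3.16 at E13.5 (3270-fold, adjusted p = 4.47e-05). Cyp2f2, a cytochrome P450 of airway secretory cells, had 10010 and 14680, against 19.1 and 11.1, and Ltf, the iron-binding defence protein lactoferrin, 6192 and 14590, against 94.6 and 15.8 (187-fold). Reg3g, an antibacterial lectin, had 440 and 2301 and no count at E13.5, and Tff2, a trefoil peptide of mucous cells, 204 and 63.5 and no count. Dcpp1, a salivary-type demilune protein, had 4876 in replicate 1 of E18.5 and 80.1 in replicate 2, against 2.29 and 0. Dcpp1 shares reads with near-identical copies, and the split between them is an estimate.

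Some secretory genes of the airway had far lower values in the esophagus than in the trachea at E18.5. Scgb3a2, a secretoglobin of airway club cells that was chosen after its values were seen, had 389 and 1167 in the esophagus, against 15180 and 34170 in the trachea (3.15% of the tracheal mean), Reg3g 440 and 2301, against 14510 and 34300 (5.62%), and Muc5b 8105 and 5426, against 52630 and 173500 (5.98%). Over 28 secretory genes with a mean of at least 50 in either tissue the share was 2.88 to 13700% (median 55.8%), with 6 below 10% and Dcpp1 at the top. Cyp2f2, in contrast, stood at 10310 and 9242 in the trachea, beside 10010 and 14680 in the esophagus. Krt4 and Krt13 had 21390 and 10520 and 17600 and 6193 in the trachea, so that the esophagus held 468 and 534% of the tracheal mean. These shares are descriptions of 2 libraries against 2, without a test. Nkx2-1, a factor of trachea, lung and thyroid, had 35.8 and 33.2 in the E18.5 esophagus, against 11.4 and 0.790 at E13.5 (adjusted p = 0.22), and whether airway tissue took part in these values was not tested.

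Enzymes that handle alcohols, aldehydes and glutathione conjugates rose in 12 of 20 cases, with none lower (median 2.48), and in 8 without replicate 2 of E13.5. Dhrs9, a retinol and steroid dehydrogenase, had 873 and 2097 normalized counts, against 0.763 and 3.16 (718-fold, adjusted p = 2.75e-07). Gsto1, an omega-class glutathione transferase, had 8354 and 28230, against 410 and 323 (49.9-fold, adjusted p = 7.96e-09), and Gsta4, which conjugates lipid aldehydes, 2912 and 7167, against 800 and 723. Aldh3a1, an aldehyde dehydrogenase of surface epithelia, had 139 and 175, against 2.29 and 0.

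Skeletal muscle made up the other large rise. Of 42 tested genes of the sarcomere and of excitation and contraction, 37 rose and none fell (median 4.59), and 29 to 38 rose without any single library. Myh4, the myosin heavy chain of the fastest fibres (chromosome 11, 67128336 to 67151274), had 50390 and 52990 normalized counts at E18.5, against 14.5 and 27.6 at E13.5 (2440-fold, log2 11.26, SE 1.01, adjusted p = 1.02e-07). Mybpc2, the fast myosin-binding protein C, had 13600 and 9180, against 16.02 and 26.1 (539-fold), Pvalb, the calcium buffer parvalbumin of fast fibres, 3426 and 3202, against 0.763 and 13.4, and Ckm, muscle creatine kinase, 90860 and 75970, against 86.2 and 318 (413-fold). Myh8, the perinatal myosin, had 403000 and 274900, against 1917 and 4391 (107-fold), and skeletal actin Acta1 336600 and 255600, against 2001 and 4749 (87.7-fold). Titin (Ttn) rose 11.2-fold with 687700 and 366400, against 13940 and 80030, a call lost without replicate 1 of E18.5 (adjusted p = 0.0585) or replicate 1 of E13.5 (adjusted p = 0.136).

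Of the 5 members that did not pass, 4 are given here. Embryonic myosin Myh3 had 40830 and 25940 at E18.5, against 5711 and 15510 at E13.5 (adjusted p = 0.171), and slow myosin Myh7 6016 and 5053, against 1577 and 4776 (adjusted p = 0.546). The slow troponin genes Tnni1 and Tnnc1 overlapped between ages, the first with 3379 and 2515, against 1486 and 6648, and the other with 1246 and 1138, against 1023 and 4516. Myh3, Myh7, Tnni1 and Tnnc1 were chosen after their values were seen. Other slow-fibre genes of the list rose, as Mybpc1 with 46100 and 33690, against 400 and 1149 (adjusted p = 5.83e-06), and Tnnt1 with 5279 and 4863, against 809 and 2604 (adjusted p = 0.0264), both also chosen after their values were seen. Tnnt1 did not pass without either E18.5 library or without replicate 1 of E13.5 (adjusted p = 0.0801 to 0.373). Over the whole list the summed level at E13.5 was 40301.5 in replicate 1 and 163552 in replicate 2. Reads of the myosin genes, which lie in tandem and are alike in sequence, are divided between members by estimate. At E15.5 the 2 libraries differed in muscle, with 10190 and 12310 for Myh4, 302800 and 85850 for Myh8 and 79930 and 27140 for Myh3. The neighbouring organs held the same genes at E18.5. Over the 42 genes the esophageal mean was 46.0 to 221% of the tracheal one (median 142%). Myh4 had 97720 and 127100 in the trachea and 18510 and 15880 in the larynx. Ckm had 44460 and 46230 in the trachea and 156100 and 109600 in the larynx. Whether muscle from outside the esophageal wall took part in these values was not tested.

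In the promoters of the sarcomere list (32 of 42 genes matched, 38 promoters), the E-box CAGCTG, a sequence bound by myogenic bHLH factors, stood in 17 (44.7%), against 16.3% of all promoters. It is in capitals in the promoters of Myh4 and Ckm, the members with the largest rise that hold it.
Myh4 (chr11:67237562-67237861, plus strand): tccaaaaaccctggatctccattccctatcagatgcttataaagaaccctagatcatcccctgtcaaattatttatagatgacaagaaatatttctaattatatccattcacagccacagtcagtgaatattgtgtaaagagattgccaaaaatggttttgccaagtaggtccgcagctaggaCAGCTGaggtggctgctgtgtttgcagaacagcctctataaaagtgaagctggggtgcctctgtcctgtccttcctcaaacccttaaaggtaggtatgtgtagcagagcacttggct
Ckm (chr7:19410844-19411143, plus strand): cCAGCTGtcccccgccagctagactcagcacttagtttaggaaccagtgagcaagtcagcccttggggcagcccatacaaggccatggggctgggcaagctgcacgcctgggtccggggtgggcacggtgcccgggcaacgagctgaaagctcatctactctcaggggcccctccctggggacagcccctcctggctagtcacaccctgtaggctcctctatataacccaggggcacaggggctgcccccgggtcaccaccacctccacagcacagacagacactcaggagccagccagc
The core of the MEF2 site stood in 5 of the 38 (13.2%), against 3.69% of all promoters.

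Of 28 myogenic regulators and genes of the nerve-muscle junction, 10 rose and 1 fell (median 0.87), with 4 and 5 rises left without replicate 1 of E13.5 and without replicate 1 of E18.5. Myf6, the myogenic factor of maturing fibres, had 1385 and 901 normalized counts, against 8.39 and 30.8 (58.2-fold, adjusted p = 5.2e-06). Myod1 (266 and 207, against 158 and 321) and Myog (1397 and 954, against 771 and 1519) overlapped between ages with adjusted p of 1. Tbx1, needed for branchiomeric and esophageal muscle, rose 10.3-fold to 328 and 435, against 47.3 and 26.9. Chrne, the adult-type acetylcholine receptor subunit, had 47.8 and 31.7, against 3.05 and 3.95, and did not pass without replicate 1 of E13.5 (adjusted p = 0.0867) nor without replicate 1 of E18.5 (0.0519) or replicate 2 of E13.5 (0.052).

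Smooth muscle genes split. Of 23, 9 rose and 5 fell, and the median change was 0.07, with the sign turned to -0.03 under TMM factors. Without replicate 1 of E13.5, 5 rose and 3 fell, and 2 fell without either E18.5 library. The members that rose most are also made by striated muscle. Desmin (Des) had 31700 and 21620, against 990 and 2418 (15.6-fold), the tropomyosin Tpm2 51510 and 42550, against 2987 and 4749 (12.2-fold), Tpm1 52740 and 43340, against 8044 and 13120 (4.54-fold), and Pdlim3, a Z-disc protein, 4982 and 5271, against 369 and 543. Those that fell most, chosen after their values were seen, mark smooth muscle more narrowly. Calponin (Cnn1) fell to 115 and 77.1 at E18.5, against 814 and 846 at E13.5 (log2 -3.11, SE 0.81, adjusted p = 0.00891), gamma smooth muscle actin (Actg2) to 221 and 175, against 1634 and 1392 (adjusted p = 0.0383), and Myocd, the cofactor myocardin, to 79.1 and 60.4, against 441 and 503 (adjusted p = 0.00152). The call of Actg2 was lost without any one of the 4 libraries (adjusted p = 0.0708 to 0.242) and that of Cnn1 without either E18.5 library (0.056 and 0.121). Smooth muscle myosin Myh11 had 944 and 647, against 1931 and 2979 (adjusted p = 0.185), and Acta2 5185 and 4162, against 9500 and 7365 (adjusted p = 0.156). Myocardin is also a heart gene, and the Nppa and Myh6 values of the E13.5 libraries stand beside it, whose part in its fall was not tested.

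**Figure D3:**
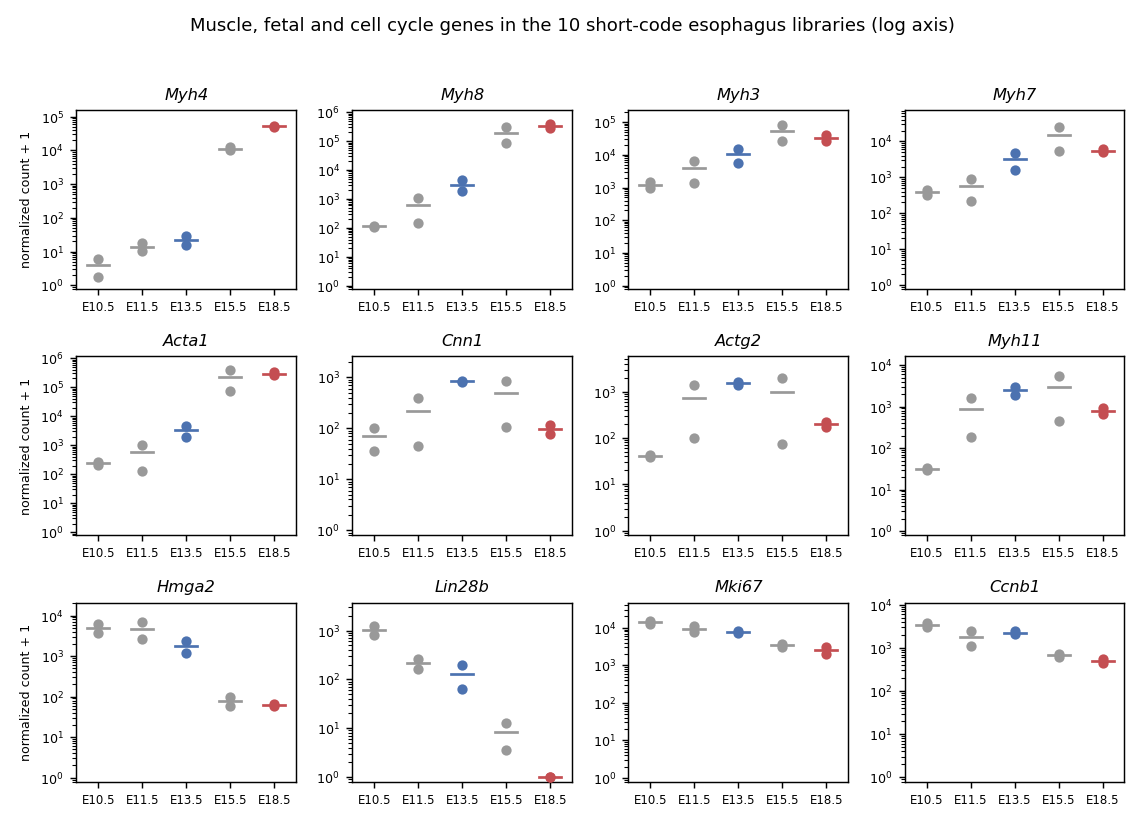
Normalized count plus 1 (log axis) of 12 genes of muscle, fetal growth and cell division in the 10 short-code libraries of the esophagus by age, E18.5 in red, E13.5 in blue and other ages in grey; points are libraries and bars their means, 2 libraries per age. Myh4 has 50390 and 52990 in the E18.5 libraries, Cnn1 and Actg2 are lower there than in both E13.5 libraries, and Lin28b has no count at E18.5.

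Nerve cells and glia had few calls. Of 26 genes of enteric neurons 2 rose and 4 fell (median -0.96). The share that rose, 7.69%, is near the 8.72% of all genes tested, many of which had few counts. With filterByExpr 2 of the 26 rose and 4 fell, while 3425 of 22805 genes rose and 2425 fell. Nos1, the nitric oxide synthase of inhibitory neurons and of skeletal muscle, had 843 and 576, against 34.3 and 15.8 (28.1-fold, adjusted p = 7.24e-07), and the neuropeptide gene Vip 29.8 and 80.1, against 4.58 and 0.790. Hand2, a factor of autonomic and enteric neurons, fell to 37.3 and 25.7, against 197 and 177, and the serotonin receptor gene Htr3a to 4.48 and 4.53, against 136 and 11.8. The 4 falls, Gfra1 among them, were all lost without replicate 1 of E18.5, without replicate 2 of E18.5 or without replicate 1 of E13.5, and Vip without replicate 2 of E18.5 or either E13.5 library (adjusted p = 0.0643 to 0.182). Hand2 is also a heart gene. Ret, the receptor that guides enteric precursors (342 and 284, against 323 and 71.9), and Sox10 (70.1 and 71.0, against 55.7 and 49.7) did not pass. Of 17 genes of Schwann cells and enteric glia 5 rose (median 0.82), with 1 left without replicate 1 of E13.5 and 3 without replicate 1 of E18.5. Mbp, a myelin protein, had 567 and 736, against 305 and 241 (2.39-fold, adjusted p = 0.0013), and S100b 354 and 151, against 57.97 and 63.96. The call of S100b was lost without replicate 1 of either age.

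Genes of cell division fell together. Of 34 tested, 33 fell and none rose, with a median of -1.78 and a range of -2.36 to -0.57, and 30 to 33 fell without any single library. E2f1, named for this reason after its values were seen, did not pass (167 and 89.2, against 176 and 204, adjusted p = 0.303). Ccne1, the cyclin that opens S phase, fell to 185 and 101.2 normalized counts at E18.5, against 693 and 781 at E13.5 (log2 -2.36, SE 0.31, adjusted p = 1.19e-05). Bub1 and Bub1b, kinases of the spindle checkpoint, fell to 248 and 159, against 976 and 1075, and to 506 and 346, against 2119 and 1908. The mitotic kinase gene Aurka fell to 154 and 127, against 783 and 604. Mki67, the proliferation marker Ki-67 (chromosome 7, 135291513 to 135318299), fell to 3068 and 1958, against 7183 and 8341 (log2 -1.63, adjusted p = 0.00046), and Top2a, DNA topoisomerase II alpha, to 2742 and 1679, against 8247 and 7595. In all 33 genes that fell, both E15.5 libraries lay below both E13.5 libraries, as in 1860 of the 2008 genes that fell among all tested (92.6%). Mki67 had 3106 and 3756 at E15.5.

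Of the 34 genes, 29 were found in the promoter table, with 30 promoters. The CCAAT box stood in 23 of 30 (76.7%), against 37.4% of all promoters, and the letters TTTGAA of the CHR element, a site of the complex that represses mitotic genes, in 12 of 30, against 17.9% of all. The CCAAT boxes, on either strand, are in capitals in the promoters of Bub1 and Aurka, which fell most among the members that hold one.
Bub1 (chr2:127831810-127832109, minus strand): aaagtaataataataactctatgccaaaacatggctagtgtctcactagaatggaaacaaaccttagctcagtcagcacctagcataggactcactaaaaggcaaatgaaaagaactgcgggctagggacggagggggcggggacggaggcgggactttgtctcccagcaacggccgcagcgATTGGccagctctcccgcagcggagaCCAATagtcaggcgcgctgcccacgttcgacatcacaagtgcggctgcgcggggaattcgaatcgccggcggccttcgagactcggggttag
Aurka (chr2:172370521-172370820, minus strand): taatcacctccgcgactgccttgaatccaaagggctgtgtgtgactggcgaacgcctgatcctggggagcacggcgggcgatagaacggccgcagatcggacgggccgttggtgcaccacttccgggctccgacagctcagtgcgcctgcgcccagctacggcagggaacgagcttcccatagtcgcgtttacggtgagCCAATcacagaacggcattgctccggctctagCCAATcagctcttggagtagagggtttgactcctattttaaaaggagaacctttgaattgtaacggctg
The TATA box TATAAA stood in none of these 30 promoters and in 13.6% of all, and the GATA letters AGATAA in 2 (6.67%), against 11.2%.

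Of 21 imprinted and fetal growth genes 9 fell and 1 rose (median -0.44), with 5 or 6 falls left without any single library. Lin28b, the RNA-binding protein that blocks maturation of let-7 microRNAs, had no count at E18.5, against 195 and 63.2 at E13.5 (at least 57.4-fold lower, adjusted p = 1.01e-05). Hmga2, a chromatin protein of embryonic cells and a let-7 target, fell to 58.2 and 65.0, against 2405 and 1189 (log2 -4.86, SE 0.45, adjusted p = 1.21e-07). Igf2bp1, an RNA-binding protein of the same fetal group, fell to 403 and 372, against 1934 and 2033. Sall4, a factor of early progenitors, had no count at E18.5, against 80.8 and 6.32, and was lost without either E18.5 library or without replicate 1 of E13.5 (adjusted p = 0.0621 to 0.23). H19, the imprinted RNA, was the member that rose, to 277700 and 247400, against 109700 and 117500 (2.31-fold, adjusted p = 0.0243), a call lost without any one library (adjusted p = 0.0717 to 0.158). Igf2, its imprinted neighbour, had 64390 and 44030, against 28940 and 33570 (adjusted p = 0.135).

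Connective tissue genes rose in 20 of 30 cases and fell in 1 (median 1.18), and 11 rose without replicate 1 of E18.5 or replicate 1 of E13.5. The largest were genes of mature fibroblasts. Tnxb, the matrix glycoprotein tenascin-X, had 8490 and 8301 normalized counts, against 99.9 and 300 (log2 5.39, adjusted p = 4.64e-07), Dpt, dermatopontin, 3066 and 3349, against 111 and 111 (28.9-fold), Pi16, a marker of adventitial fibroblasts, 386 and 496, against 16.8 and 11.8, and Clec3b 178 and 322, against 3.81 and 8.69. The fibrillar collagens moved less. Under TMM factors 16 of the 30 genes of the list rose, without these 2 collagens. Col3a1 had 142400 and 104900, against 63980 and 64360 (1.93-fold, adjusted p = 0.0274), and Col1a2 70620 and 44240, against 27630 and 29550 (2.01-fold, adjusted p = 0.045). Before normalization the 2 libraries of an age held 164832 against 165387 counts of Col3a1 and 76608 against 73641 of Col1a2. Neither passed over all 40 libraries, over the 10 esophageal libraries or over the 4 compared. Both were lost without replicate 1 of E18.5 or without either E13.5 library (adjusted p = 0.118 to 0.45).

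Regulators of early foregut mesenchyme fell in 7 of 25 cases and rose in 1 (median -1.10), and 4 fell without replicate 2 of E18.5. Gata4, a factor of foregut and heart mesoderm, fell to 2.98 and 1.51 at E18.5, against 361 and 500 at E13.5 (adjusted p = 6.58e-05), Gata5 had no count, against 68.7 and 86.1 (at least 34.3-fold lower), and Tbx5 fell to 5.97 and 22.7, against 406 and 571. Gata4, Gata5 and Tbx5 are also made in the heart. Hoxa5 fell to 28.4 and 15.1, against 189 and 346, and lost its call without replicate 2 of E18.5 (adjusted p = 0.0715). Hoxa7 had no count at E18.5, against 174 and 156 (at least 73.1-fold lower), a call lost without replicate 2 of E18.5. Barx1, the esophageal and stomach mesenchyme factor, had 85.1 and 69.5, against 26.7 and 15.8 (adjusted p = 0.212), and Foxf1, the Hedgehog-responsive factor of gut mesenchyme, 122 and 150, against 416 and 166 (adjusted p = 0.351).

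Signalling pathways showed few calls, to be read beside the shares of 8.72% higher and 5.63% lower among all genes tested, many of which had few counts. With filterByExpr 3425 of 22805 genes were higher and 2425 lower. Under that filter 5 of 15 Hedgehog and 3 of 22 Notch genes fell, and 2 of 27 BMP and TGF-beta genes rose and 4 fell. In the Hedgehog pathway, by which the epithelium signals to the mesenchyme, 4 of 15 genes fell (median -0.57), among them the transcription factors Gli3 (521 and 512, against 1201 and 1164, adjusted p = 0.000155), Gli1 (101.5 and 75.6, against 162 and 203, adjusted p = 0.0496) and Gli2 (251 and 236, against 427 and 505), and the acyltransferase Hhat. Without any one library 1 or 2 members fell. In the Notch pathway 2 genes (9.09%), the effectors Hey2 (44.8 and 39.3, against 182 and 135) and Hey1, fell among 22 genes, with a median of 0.00 that became -0.12 under TMM factors, and Hey1 did not pass without replicate 2 of E18.5 (adjusted p = 0.0715). In the BMP and TGF-beta pathway 2 of 27 rose and 4 fell (median 0.15), with 1 rise and 2 falls without replicate 2 of E18.5. The activin subunit gene Inhba fell to 82.1 and 57.4, against 417 and 333 (adjusted p = 0.000853), the BMP response gene Id3 to 482 and 450, against 1275 and 946, and the ligand gene Tgfb2 to 713 and 574, against 1948 and 1013, while the BMP antagonist Grem1 had 295 and 484, against 109 and 117 (3.45-fold, adjusted p = 0.0147). Grem1 did not pass without replicate 2 of E18.5 or without either E13.5 library (adjusted p = 0.078 to 0.174), nor Tgfb2 without replicate 2 of E18.5 or replicate 1 of E13.5 (0.118 and 0.321).

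Vessels and blood cells were read beside the same shares, 8.72% higher and 5.63% lower of all genes tested. With filterByExpr 3425 of 22805 genes were higher and 2425 lower. Under that filter 5 of 20 endothelial genes rose, and 5 of 19 macrophage genes rose and 3 fell. Of 20 endothelial genes 3 rose (median 0.27), with the water channel Aqp1 at 4008 and 3244, against 628 and 779 (5.16-fold, adjusted p = 8.73e-07), and 1 rose without replicate 2 of E18.5 or without replicate 1 of E13.5. Of 20 macrophage genes 5 rose and 2 fell (median -0.23), and the rises numbered 3, 3, 3 and 1 without replicate 1 of E18.5, replicate 2 of E18.5, replicate 1 of E13.5 and replicate 2 of E13.5. Both falls were lost without either E18.5 library or without replicate 1 of E13.5. Cd163, the haemoglobin scavenger receptor of resident macrophages, had 148 and 124 and no count at E13.5 (at least 117-fold higher, adjusted p = 3.52e-05). Lyz2, lysozyme, had 751 and 1907, against 470 and 301, a call lost without replicate 2 of either age. Of 15 erythroid genes 9 fell (median -3.90). The embryonic globin Hbb-y fell to 31.3 and 3.02, against 25440 and 19450 (log2 -10.34, SE 0.80, adjusted p = 1.11e-08), and Hba-x to 35.8 and 9.07, against 2966 and 2182. The adult globin Hbb-bs had 71500 and 18520, against 41370 and 19410 (adjusted p = 0.731). Globin reads are divided among similar genes, and the amount of blood in the dissected tissue was not measured.

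Genes of neighbouring organs moved strongly and set the libraries apart. At E18.5 these were genes of thyroid, cartilage and fat. Whether such tissue was in the pieces was not tested, at this age or at E13.5. Of 11 thyroid genes 7 rose (median 3.67), with 2 to 5 rises left without any single library. Thyroglobulin (Tg) had 92820 and 45080, against 32.0 and 49.0 (1700-fold, adjusted p = 0.000123), with 41.0 and 26.2 at E15.5. Of 20 cartilage genes 16 rose (median 2.63), but 2 did without replicate 1 of E13.5 and 5 without replicate 1 of E18.5. Col2a1 had 67230 and 27950, against 676 and 3320 (23.8-fold), and Acan, the cartilage proteoglycan, 6029 and 2782, against 37.4 and 494, a call lost without replicate 1 of E13.5 (adjusted p = 0.0528). In both Tg and Col2a1 replicate 1 of E18.5 was the higher. The tracheal libraries of this age held more of each, with 231000 and 156500 for Tg and 145100 and 70730 for Col2a1. Of 15 fat genes 11 rose (median 5.61, or 4.08 with bounds). Ucp1, the uncoupling protein of brown fat, had 1961 and 8088, against 0.763 and 0, and Adipoq, adiponectin, 577 and 751 and no count at E13.5. Ucp1 had 19.3 and 145 in the E18.5 trachea. In all 11 fat genes both E15.5 libraries of the esophagus lay above both E13.5 libraries, against 93.9% of all genes that rose.

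At E13.5 the genes were those of liver, heart and thymus. Of 20 hepatocyte genes 11 fell (median -6.23, or -5.69 with bounds), and without one library the numbers differed widely. They were 1 without replicate 1 of E18.5, 1 without replicate 1 of E13.5 and 13 without replicate 2 of E13.5, and each p rose above the threshold without replicate 2 of E18.5. Alb, serum albumin, fell to 7.46 and 7.56, against 11870 and 1168 (adjusted p = 0.00427), a call lost without either E18.5 library (0.063 and 0.0699). Serpina6, the corticosteroid carrier, had no count at E18.5, against 2612 and 236, a call lost without either E18.5 library or without replicate 1 of E13.5. Of 20 cardiomyocyte genes 11 fell and 1 rose (median -2.63), and 5 to 12 fell without any single library. Myh6, the atrial and adult heart myosin, fell to 416 and 450, against 3392 and 38510 (log2 -5.60, adjusted p = 0.00185), and did not pass without replicate 2 of E13.5 (adjusted p = 0.0779). Nppa, the atrial natriuretic peptide, had no count at E18.5, against 169 and 6143, a call lost without either E18.5 library or without replicate 2 of E13.5. Psmb11, the proteasome subunit of thymic epithelium, had 1.49 and 0, against 309 and 0.790 (adjusted p = 0.0739), and was chosen after its values were seen. Of 15 thymus genes 2 fell (median -2.93, or -2.59 with bounds), and both calls were lost without either E18.5 library or without replicate 1 of E13.5. Of 10 genes of the lung alveolus 5 rose and 1 fell (median 3.89, or 3.72 with bounds), with 3 rises left without replicate 2 of either age and no fall without replicate 2 of E18.5. The surfactant gene Sftpc had 52.2 and 74.0 and no count at E13.5. Parathyroid hormone (Pth) had 809 and 3331, against 490 and 0.790 (adjusted p = 0.382). Replicate 1 of E13.5 was thus high in Alb, Psmb11 and Pth, and replicate 2 in Myh6 and Nppa.

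**Figure D4:**
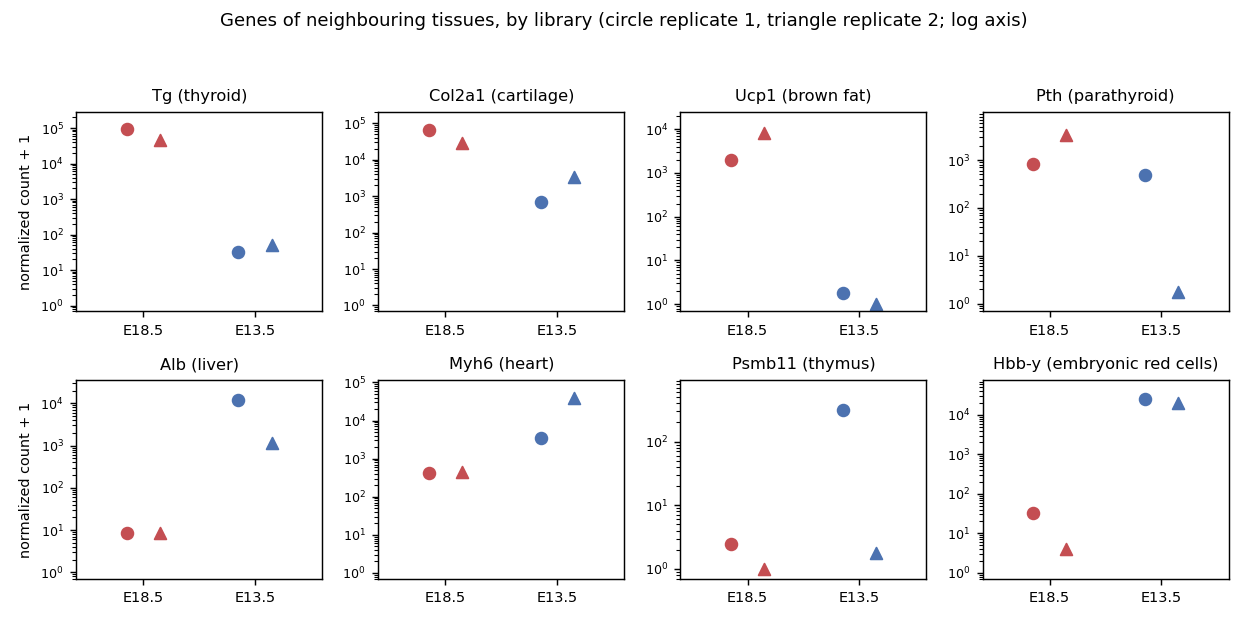
Normalized count plus 1 (log axis) of 8 genes that mark other organs or embryonic red cells, E18.5 left and E13.5 right, with circles for replicate 1 and triangles for replicate 2. Tg, Col2a1 and Ucp1 are higher in both E18.5 libraries, Alb, Myh6 and Hbb-y in both E13.5 libraries, and Pth and Psmb11 are high in 1 E13.5 library and under 1 normalized count in the other.

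**Figure D5:**
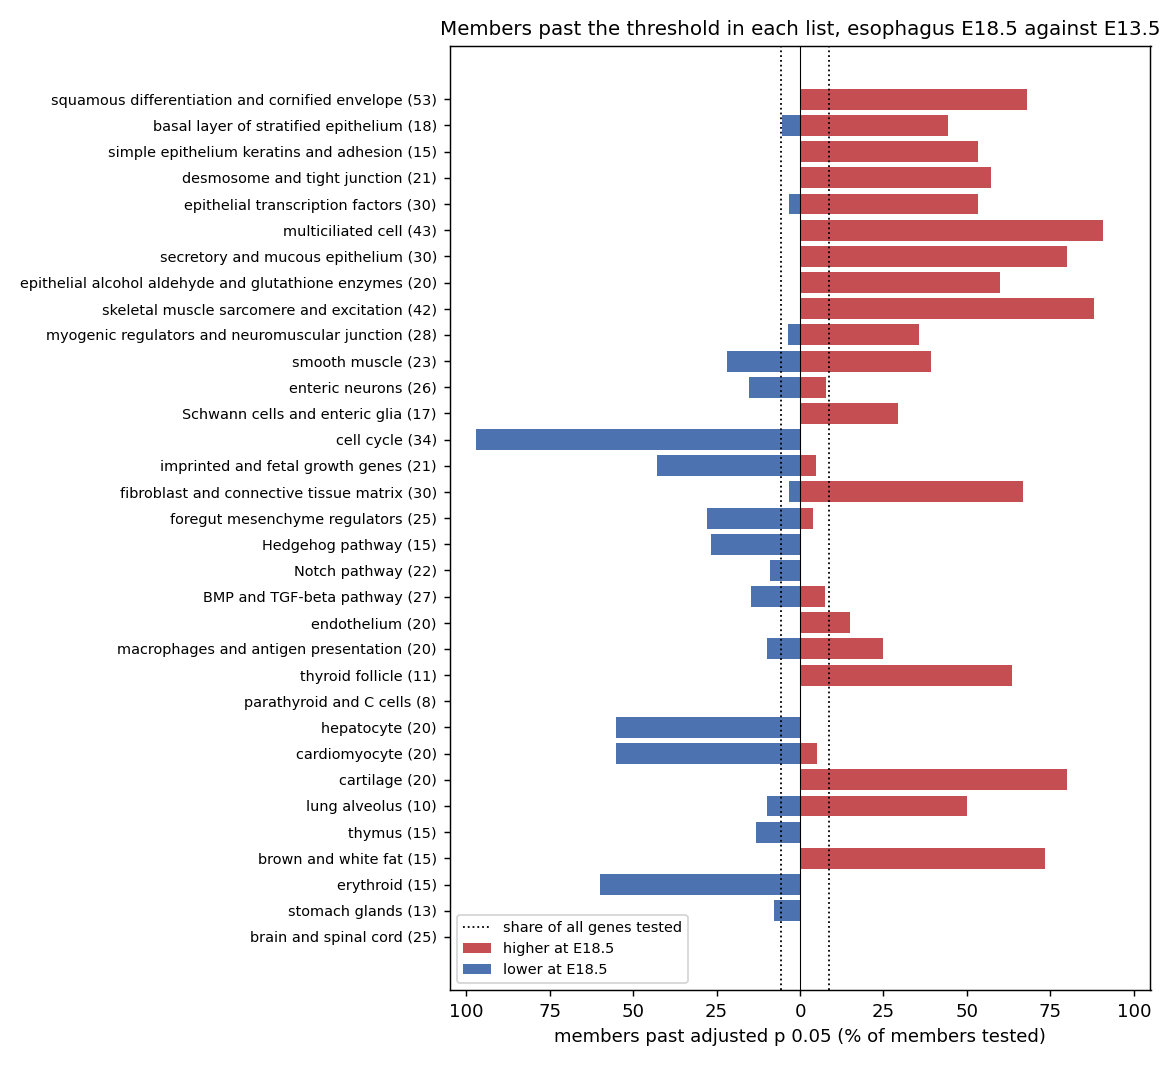
Percent of the tested members of 33 gene lists that were higher (red, to the right) or lower (blue, to the left) at E18.5 at an adjusted p under 0.05, with the number tested in brackets. Dotted lines mark the share of all genes tested, many of which had few counts, at 8.72% higher and 5.63% lower. Multiciliated, skeletal muscle and cell cycle lists reach furthest from the dotted lines, and 7.69% of the enteric neuron list is higher.

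Whether a change differed from that in the trachea or the larynx over the same ages was tested as a difference of the 2 changes. Same-numbered libraries of the 3 organs deviated together at 1 age, with r of 0.128 to 0.148 at E18.5 and 0.204 to 0.293 at E13.5 across genes, and at E13.5 Alb was high in replicate 1 of each organ (esophagus 11870 and 1168, trachea 10830 and 229, larynx 5415 and 801). The contrasts do not use this. Against the trachea 1 gene of 35650 passed (0.00281%), and its call was lost with a replicate block. Genes without a count at E13.5 in both organs could not pass, as Sprr3 (SE 15000) and Krt6b (SE 18800). Large differences with a count also failed, as Acan with -4.675 (SE 1.29, adjusted p = 0.976). The number that passed is thus no measure of how alike the changes were. With a replicate block 18 genes passed against the larynx, 15 of them among the 16 without it. The 1 gene that passed against the trachea, without the block, was Zfhx4, a large zinc-finger homeodomain factor (chromosome 3, 5283586 to 5480917). Zfhx4 fell in the esophagus to 518 and 388 at E18.5, against 1651 and 1690 at E13.5 (log2 -1.88, SE 0.26, adjusted p = 2.03e-05). The trachea had 1048 and 1227, against 931 and 659. The esophageal change of Zfhx4 minus the tracheal one was -2.397 on the log2 scale (SE 0.36, adjusted p = 0.0261). This call held without replicate 1 of either esophageal age and was lost without replicate 2 of either, or without any one of the 4 tracheal libraries. Against the larynx 16 genes passed (0.0449%), 10 of them (0.0281%) with a higher and 6 (0.0168%) with a lower change in the esophagus. The number was 1 without replicate 2 of the E18.5 esophagus, 5 without replicate 1 of the E18.5 larynx or replicate 2 of the E13.5 larynx, 30 without replicate 1 of the E18.5 esophagus and 32 without replicate 2 of the E18.5 larynx. Zfhx4 was again among the 16 (difference -2.38, adjusted p = 0.00731), with 840 and 1083, against 716 and 644, in the larynx.

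Among the differences from the larynx were genes of hardening cartilage and of tendon. Col10a1, the collagen of hypertrophic cartilage, had 53.7 and 37.8 at E18.5, against 6.10 and 10.3 at E13.5, in the esophagus, and 12730 and 3164, against 7.07 and 2.93, in the larynx (difference -8.06, adjusted p = 0.00111). Spp1, osteopontin, had 291 and 128, against 114 and 76.6, in the esophagus, and 7349 and 7432, against 36.8 and 56.6, in the larynx. Tnmd, the tendon protein tenomodulin, and the fibril-associated collagens Col22a1 and Col12a1 had differences of -4.99, -3.16 and -2.53. On the other side stood Hcn4, the pacemaker channel of the heart, with 19.4 and 25.7, against 173 and 127, in the esophagus, and 3.98 and 1.13, against 1595 and 1324, in the larynx (difference 6.42, adjusted p = 0.00472). The heart gene Myh6 had 61560 and 108100 in the E13.5 larynx, against 3392 and 38510 in the E13.5 esophagus. Whether heart tissue took part in the difference of Hcn4 was not tested. Calca, the calcitonin and CGRP gene, had 143 and 124, against 30.5 and 36.3, in the esophagus, and 9.28 and 20.3, against 127 and 222, in the larynx (difference 5.52, adjusted p = 0.0329). Mycbpap and Ccdc181, both found in motile cilia or sperm flagella, had differences of 4.94 and 2.70. Gsta4 had 2912 and 7167, against 800 and 723, in the esophagus, and 912 and 1378, against 719 and 1100, in the larynx (difference 2.39, adjusted p = 0.0336).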

How the data were processed

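Poly-A RNA of larynx, trachea and esophagus was sequenced by the authors, who deposited RSEM expected counts per gene, and the submitters' processing notes name FastQC 011.5, Bowtie2 2.4.2, RSEM 1.3.3 and GRCm39. RSEM divides reads among similar genes, and the sources used here do not say if strand was used. The deposited expected counts were rounded to whole numbers. A gene was kept if 2 or more of the 30 short-code libraries reached a normalized count of 1, median-ratio factors were used, and 1 mean per tissue and age was fitted with edgeR 4.0.16 (R 4.3.3, quasi-likelihood F test, Benjamini-Hochberg adjusted p under 0.05 over all genes). The study's own test follows age as a curve and does not compare 2 ages, so a contrast of group means was used. Differences between tissues were contrasts of 2 changes. Of 53647 gene identifiers, 52610 matched a symbol in GENCODE vM39. The labels map every column to a sample, and 10 of the 40 libraries, without a short code, entered only an alternative. The 4 libraries held 15758853 to 19482491 counts, and the median SE of the log2 change was 0.276 for genes with a mean of at least 50.

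Genes named were the 15 that rose and the 15 that fell most, if past the threshold, free of overlap and with a mean of at least 50 in the higher age, the 4 largest changes past the threshold and the 2 highest genes of each of 33 lists, the tissue markers, and up to 6 genes at each end of each difference between tissues. Others are said to be chosen after their values were seen. The libraries compared and the lists were chosen with earlier results of these data known. A fold against a group without a count uses a floor of 3 counts over its 2 libraries, which covers counting error only. Alternatives were TMM factors, other filters, DESeq2 1.42.0, a replicate block, other sets of libraries and leaving out each library. Python 3.11.15, pandas 2.3.3, numpy 2.4.6 and matplotlib 3.10.9 were used.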

Additional observations from a re-analysis of the deposited data

Results flagged for a closer look

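The change between E13.5 and E18.5 in the esophagus differed from that in another tissue, by a test of the difference itself, in 1 gene for the trachea and 16 genes for the larynx. For the trachea this was Zfhx4 (difference -2.40 on the log2 scale). For the larynx the change was lower in the esophagus in Col10a1 (-8.06), Spp1 (-6.18), Tnmd (-4.99), Col22a1 (-3.16), Col12a1 (-2.53) and Zfhx4 (-2.38). It was higher in the esophagus in Pink1 (1.42), Arhgef28 (1.95), Eml2 (2.37), Gsta4 (2.39), Selenbp1 (2.41), Ccdc181 (2.70), 1700088E04Rik (3.36), Mycbpap (4.94), Calca (5.52) and Hcn4 (6.42). For Hcn4, which was lower at E18.5 in both organs, this means a smaller fall.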

How the results depend on the processing

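With 2 libraries per age the spread was borrowed from 26 others, and the depth limits genes near 3 counts. Between ages the 5115 calls became 5045 under TMM factors, with 53.4% rather than 60.7% of them higher and the median of genes with a mean of at least 10 at -0.05 rather than 0.07, 6522 with DESeq2, 3678 over all 40 libraries, 4123 over the 10 esophageal libraries and 2834 over the 4 compared, and 3067 to 3853 without any single library. The cause of these shifts was not tested. Replicate numbers did not pair the ages (r of deviations -0.0158), and a replicate block gave 4970 calls between ages, 0 against the trachea and 18 against the larynx. Calls against the trachea (1) became 298 without a filter, 14 with DESeq2, 0 with filterByExpr, over all 40 libraries and without 3 libraries rich in olfactory receptor genes, and 0 to 6 without any single library. Calls against the larynx (16) became 26 under TMM factors, 883 without a filter, 288 with DESeq2, 3 over all 40 libraries, 52 without those 3 libraries, and 1 to 32 without any single library. Of 129 genes named as called, 87 passed under every alternative, and none of the 167 genes named changed direction past the threshold.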
